A study of Mus musculus with 12 samples.

Results

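The 505 regions described here were called by the authors as peaks of anti-m6A enrichment. Each stands in 1 block and is the only row of its gene in the peak table. Each also carries 80 or more reads in every one of the 4 pooled read counts of that table. They are 505 of the 2643 peaks it lists, or 19.1%. Here and below, all peaks means the rows of that table. The paper reports more peaks than the table holds, so the gene of a member may have others. Of all peaks, 2612 had a single block and 1764 of these were the only row of their gene, so the read minimum removed most of the rest. The members were thus chosen by their read counts. The same counts give the change described below, so counts of members past a fold are a description without a test.

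The samples were HT22 cells, an immortalised line from mouse hippocampus, either exposed to 800 μM mesaconitine (MA), a diterpenoid alkaloid of Aconitum plants, for 72 h, or left untreated as the control. From each condition 3 libraries of input mRNA and 3 of mRNA precipitated with an anti-m6A antibody (IP) were made, 12 in all. The table gives 1 pooled read count per group and peak (input and IP of the control, input and IP of MA), so no spread between libraries could be measured and no test between conditions was made. Intervals below are 95% counting intervals from the 4 read counts. They do not cover differences between cultures or amplification. In these cells the markers of neurons were mostly at or near 0: 11 of 19, Map2, Snap25 and Gria2 among them, were listed at a base mean of 0 (the mean normalized count over libraries, deposited with the expression table), and 15 of 19 were under 20. Dlg4 (4073), Syn1 (710) and Tubb3 (473) were the 3 highest, while all 7 mesenchymal markers were expressed, from 862 for Acta2 to 286199 for Fn1.

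N6-methyladenosine (m6A) is a methyl group on internal adenosines of mRNA, written by a nuclear methyltransferase complex around Mettl3 and Mettl14, removed by demethylases such as Alkbh5, and read by proteins of the Ythdf and Ythdc families that influence splicing, translation and decay. It is placed mostly at adenosines within the DRACH motif (D is A, G or T, R is A or G, H is A, C or T) and is known to gather in long exons and near stop codons. In an enrichment assay the mRNA is fragmented and precipitated, and a modified stretch gives more IP reads than its input reads would lead to. The ratio of IP to input reads therefore describes enrichment, and it also moves with the depth of each library.

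The sequences of 7 members show what such a peak is. They are coding peaks among the 10 largest decreases or the 10 largest increases of the ratio, printed 5′ to 3′ on the coding strand with introns removed, from the mm10 assembly, and every DRACH match is in capitals.

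Mfap1a, chr2:121497347-121499318, minus strand, 175 bases: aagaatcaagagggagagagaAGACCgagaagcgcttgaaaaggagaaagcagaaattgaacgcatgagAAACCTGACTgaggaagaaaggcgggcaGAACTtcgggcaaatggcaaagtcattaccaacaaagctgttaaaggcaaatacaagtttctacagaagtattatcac
Mapk11, chr15:89144182-89144306, minus strand, 125 bases: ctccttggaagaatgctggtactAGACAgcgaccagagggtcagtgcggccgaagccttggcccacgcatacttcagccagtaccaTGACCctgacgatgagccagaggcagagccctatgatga
Irs1, chr1:82289902-82289976, minus strand, 75 bases: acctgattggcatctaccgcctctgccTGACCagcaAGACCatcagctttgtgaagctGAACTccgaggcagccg
Adgrl1, chr8:83929676-83929750, plus strand, 75 bases: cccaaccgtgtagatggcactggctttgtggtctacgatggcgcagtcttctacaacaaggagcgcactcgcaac
Pcif1, chr2:164888437-164889141, plus strand, 125 bases: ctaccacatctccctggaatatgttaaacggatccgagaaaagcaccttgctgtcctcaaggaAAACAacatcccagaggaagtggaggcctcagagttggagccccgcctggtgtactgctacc
Actr8, chr14:29987287-29988273, plus strand, 150 bases: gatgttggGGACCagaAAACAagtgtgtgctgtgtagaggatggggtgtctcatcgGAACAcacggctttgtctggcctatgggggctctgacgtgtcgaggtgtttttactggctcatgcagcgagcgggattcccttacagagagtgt
Ccl25, chr8:4354091-4357654, plus strand, 175 bases: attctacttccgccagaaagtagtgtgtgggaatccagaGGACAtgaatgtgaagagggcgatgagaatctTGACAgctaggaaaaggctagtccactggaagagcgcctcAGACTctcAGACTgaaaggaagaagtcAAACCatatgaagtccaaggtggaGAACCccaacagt

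The first 4 of these had a lower ratio after MA and the last 3 a higher one. Mfap1a held 4 DRACH matches, Irs1 3, Mapk11 2 and Adgrl1 0. Among those with a higher ratio, Ccl25 held 6 matches, Actr8 3 and Pcif1 1. GGAC, a core that is often methylated, stood once in Ccl25 and once in Actr8 and in none of the other 5. The word block describes the table and not the exons: the Mfap1a, Pcif1, Actr8 and Ccl25 sequences each join 2 exons.

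A single block did not mean a single exon. Of the 505 members, 496 could be placed with both ends in exons of the gene they name, 485 on GENCODE and 11 on RefSeq transcripts. Of these 496, 297 lay within 1 exon, 177 ran over 2 exons, 19 over 3 and 3 over 4, although the table gives each as 1 uninterrupted block. The genomic span of the members ran from 50 to 355961 bases with a median of 149, and 155 members spanned more than 1000 bases. The longest span, that of Lhfpl3, held 175 exonic bases in 2 exons. Counted in exonic bases the members were short, from 25 to 865 bases with a median of 75 and quartiles of 50 and 125. The exonic length was a multiple of 25 in 485 of 496 (97.8%). It was 50 bases in 174 members, 75 in 89, 100 in 52 and 25 in 35. Because the span is dominated by introns, levels per length are given below per 100 exonic bases.

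**Figure D1:**
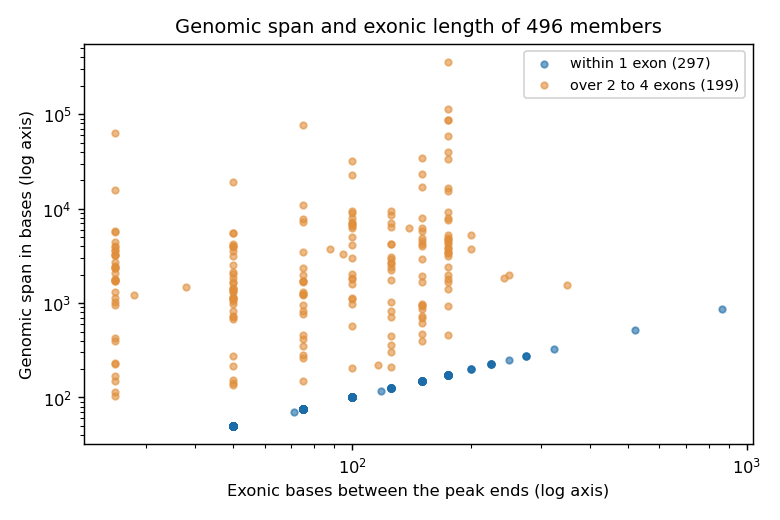
Genomic span against exonic length, both in bases on log axes, for the 496 members placed on a transcript. Each point is a member. The 297 members within 1 exon lie on a line where both lengths are equal, and the 199 over 2 to 4 exons lie above it, up to a span of 355961 bases at 175 exonic bases.

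The pairing of gene names and read counts did not hold through the whole table. Input reads of a peak come from the mRNA of its gene, so a row with many input reads is usually that of a highly expressed gene. Over rows 495 to 1829 of the table, the input reads followed the base mean per transcript base of the gene named on the same row, with a Spearman's rho of 0.46 over 1260 rows. Over rows 1 to 162 rho was 0.51. From row 1830 to the last row, 2643, rho with the gene on the same row was 0.08, and with the gene on the next row it was 0.39 over 805 rows. Rows 344 to 494 gave 0.12 with the same row and 0.54 with the next. In rows 163 to 343 neither pairing showed a relation (0.02 and 0.07). The stretches were found from this relation, so these values describe them and are no test of it. The order of the gene names broke alphabetical order 11 times in the 1497 rows of the first kind and 116 times in the other 1146.

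**Figure D2:**
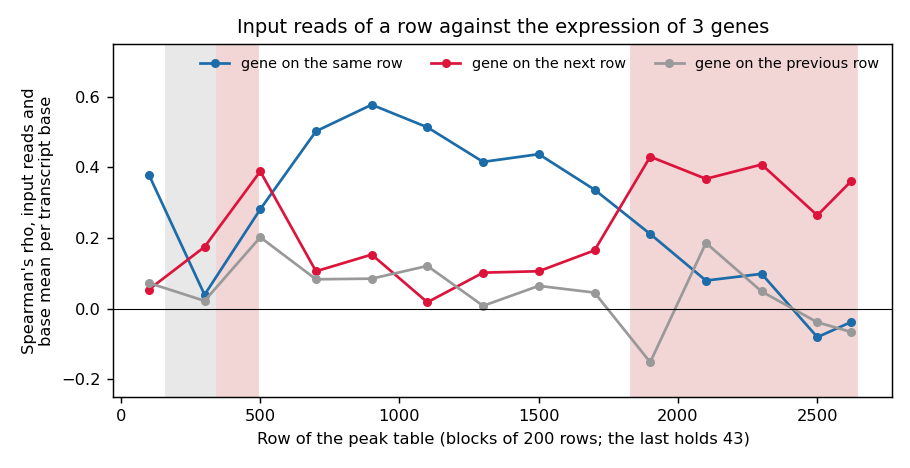
Spearman's rho between the input reads of a row (control and MA together) and the base mean per transcript base of the gene on the same row (blue), the next row (red) or the previous row (grey), in blocks of 200 rows in table order. Blue leads in the unshaded rows, red leads in the rows shaded pink (344 to 494 and 1830 to 2643), and the rows shaded grey (163 to 343) followed neither; blocks across a border mix both kinds.

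Of the 505 members, 296 (58.6%) lay in rows whose reads followed their own gene, called matched rows below, and 209 in the other rows. Over the matched members rho between input reads and their gene was 0.40 (282 members with a value), and over the others it was -0.13 (204). Of the 8 members whose gene was listed at a base mean of 0, 7 were in the unmatched rows: Rab44, Spock3, Ccdc3, Chn1, Clip4, Sntb1 and Usp26. Rab44 had 443 control input reads and Usp26 had 528. The eighth, Lhfpl3, was in a matched row with 274. The split into matched and other rows used these same reads and base means. The values of rho and the count of 7 therefore describe the split and are no test of it. For a member of an unmatched row, the reads may belong to another peak than the gene and coordinates beside them. Each such gene is marked as unmatched where its own reads or change are given. The counts past the fold over all members and over the listed genes together are given with and without these rows. Counts past the fold by position, exon, motif or single group of genes mix both kinds of row. Positions, exons and sequences do not use the reads, apart from the choice of members.

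The members held 140322 of 288659 control input reads (48.6% of those in all peaks), 124417 of 267002 control IP reads (46.6%), 107803 of 214778 MA input reads (50.2%) and 161208 of 359889 MA IP reads (44.8%). The depth of the libraries themselves is unknown. A member had a median of 208 control input reads (80 to 1464), 183 control IP reads (83 to 1428), 153 MA input reads (80 to 1208) and 247 MA IP reads (99 to 1495). MA input was the smallest of the 4 counts in 402 of 505 members. In control cells the median member had 0.874 IP reads per input read, against 0.958 in the median peak of the table. After MA it had 1.5, against 1.84. IP reads exceeded input reads in 135 members in control cells and in 501 after MA.

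Raw IP reads exceeded input reads by little. With both conditions added together, the members had between 1.02 and 1.73 IP reads per input read with a median of 1.17, while all peaks reached 3.78 with a median of 1.4. The other 257 peaks with 80 or more reads in each count had a median of 1.19. Since a general shift of the ratio between conditions cannot be separated from depth, all values below are relative to the median peak. The ratio of each group is given as log2 of IP to input minus the median over all 2643 peaks. The change is the log2 ratio after MA minus that in control, minus the median over all peaks, which was 0.91 before it was subtracted.

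On this scale the median member changed by -0.17, with quartiles of -0.44 and 0.24 and extremes of -2.10 and 2.11. Past 1.5-fold, the ratio was higher after MA in 47 members (9.31%) and lower in 94 (18.6%), and 364 lay between. The direction is relative to the median peak, since on raw reads, without centring, 321 members were higher and 7 lower and the median change was 0.74. A centred decrease of less than 0.91 is thus a rise of the ratio on raw reads. Over all peaks 27.9% were higher and 25.9% lower, and over the 762 peaks with 80 or more reads, members included, 11.3% were higher and 20.1% lower. The minimum on all 4 counts bears on these shares, and nothing is read from their difference. In matched rows 27 of 296 members were higher (9.12%) and 57 lower (19.3%), with a median change of -0.17. In the other rows 20 of 209 were higher (9.57%) and 37 lower (17.7%), with a median of -0.15. The counting interval was apart from 0 in all 47 higher members, in 93 of 94 lower ones and in 240 of all 505. With a median standard error of 0.21, this follows largely from the 1.5-fold cut and is no further support.

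A member is past the fold when its centred IP and input changes differ enough, so the sides on which input and IP lie follow largely from that choice and are given as a description. In the 47 higher members the median input change relative to the median peak was -0.39 and the median IP change 0.46. Input lay below the median peak in 45 of them and IP above it in 46. The 94 lower members had a median input change of 0.42 and a median IP change of -0.47, with input above the median peak in 91 and IP below it in 94. Without any scaling, all 47 higher members had more IP and fewer input reads after MA, whereas among the 94 lower members the IP count was smaller in 46 and larger in 45, and the input count was smaller in 57. Over all members the median input change was 0.10 and the median IP change -0.08.

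The order of the members by ratio was nearly opposite in the 2 conditions, but the 2 ratios were not free of each other. In control cells 175 members lay above the median peak and after MA 89 did, but only 1 lay above it in both, and 242 lay below in both. No member was more than 1.5-fold above, or more than 1.5-fold below, the median peak in both conditions. Spearman's rho between the control ratio and the MA ratio was -0.79 over the 505 members, where the ratios come from separate libraries but share the choice of peaks. It was -0.80 in matched rows (296), -0.77 in the others (209), -0.85 over the other 257 well-covered peaks and -0.63 over all 2643. Of all peaks, 396 lay above the median in both conditions. Every peak of the table had at least 1.02 IP reads per input read when both conditions were added together. Over the members this added ratio lay in a narrow band, with quartiles of 1.12 and 1.23. Where the added ratio is nearly fixed, a high ratio in 1 condition goes with a low one in the other. The part of this in the opposite order was not tested, and nothing about the conditions is read from the values of rho.

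**Figure D3:**
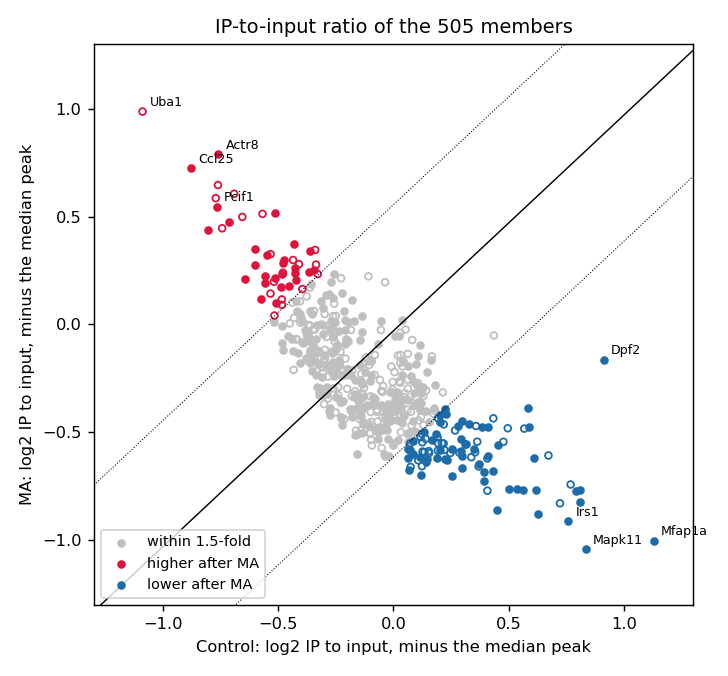
Log2 IP-to-input ratio minus the median peak in control (x) and after MA (y) for the 505 members. Filled points are members of matched rows and open points those of the other rows; the solid line marks no change and the dotted lines 1.5-fold. The points run from Uba1 (unmatched) at the upper left to Mapk11 and Mfap1a at the lower right, and the upper right is empty.

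The largest decrease was that of Mfap1a, a component of the spliceosome. It had 338 input and 709 IP reads in control cells, and 303 and 278 after MA, a change of -2.10 (-2.40 to -1.80), or 4.30-fold. The raw input count was somewhat lower after MA and 0.32 higher relative to the median peak, and the IP count was far lower on both scales. Its peak (exon 5 of 7) is not specific to the gene, since all of its 25-base stretches also occur in transcripts of other genes, its copy Mfap1b first among them, and reads of such copies cannot be told apart. Mapk11, the p38 beta kinase of the stress response, had 175 input and 299 IP reads in control cells, and 224 and 200 after MA, a change of -1.85 (-2.23 to -1.46). Here input was above, and IP below, its control count after MA. Irs1, the adaptor that carries the insulin receptor signal, had 163 input and 264 IP reads in control cells, and 125 and 122 after MA and changed by -1.64 (-2.10 to -1.18). Its peak lies in exon 1 and carries 3 DRACH matches.

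Adgrl1, an adhesion receptor known as latrophilin 1, had 116 input and 195 IP reads in control cells, and 153 and 165 after MA (-1.55, -2.01 to -1.09). Its IP count was well above input in control cells, and input and IP were nearly level after MA. Plekhf1, a phosphoinositide-binding protein of endosomes, had 115 input and 191 IP reads in control cells, and 171 and 184 after MA (-1.54) in its 3′UTR. Itgbl1, a secreted protein related to beta integrins, had 155 input and 229 IP reads in control cells, and 109 and 109 after MA (-1.47). Akap13, an anchor for protein kinase A, had 149 input and 219 IP reads in control cells, and 165 and 178 after MA (-1.36). These members of matched rows were among the 10 largest decreases. Of the unmatched ones among the 10, the row of Tab2 (-1.52) had 124 input and 196 IP reads in control cells, and 144 and 149 after MA, and the row of Avl9 (-1.48) had 87, 142, 111 and 122 in the same order.

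Of the 10 largest increases, 5 were in matched rows. Ccl25, a chemokine that attracts cells bearing Ccr9, had 165 input and 86 IP reads in control cells, and 102 and 310 after MA, a change of 1.63 (1.14 to 2.13), or 3.10-fold. Actr8, a subunit of the INO80 chromatin remodeller, had 175 input and 99 IP reads in control cells, and 85 and 270 after MA (1.58, 1.08 to 2.08). In both, IP stood below input in control cells and about 3-fold above it after MA. Pcif1, the enzyme that methylates the adenosine next to the mRNA cap, had 245 input and 138 IP reads in control cells, and 123 and 330 after MA (1.34, 0.92 to 1.76). Ado, a thiol dioxygenase, had 166 input and 91 IP reads in control cells, and 92 and 229 after MA (1.27) in its 3′UTR. Ptbp2, the splicing regulator enriched in neurons, had 142 input and 83 IP reads in control cells, and 88 and 225 after MA (1.22). Every one of these 5 had its input lower and its IP higher after MA.

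The other 5 are unmatched rows. The row of Uba1, the E1 enzyme that activates ubiquitin, held the largest increase of all, with 211 input and 95 IP reads in control cells, and 101 and 368 after MA (2.11, 1.63 to 2.58). Its gene has a base mean of 8730, with 59.9 input reads per 100 exonic bases. The rows of Serpinb8 (1.44), Col4a2 (1.39), Tbx15 (1.33) and Selenoi (1.22) had the same pattern, with control IP of 121 to 135 reads and MA IP of 277 to 331. Counts of this kind describe a peak in the table, and which gene they belong to is uncertain.

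**Figure D4:**
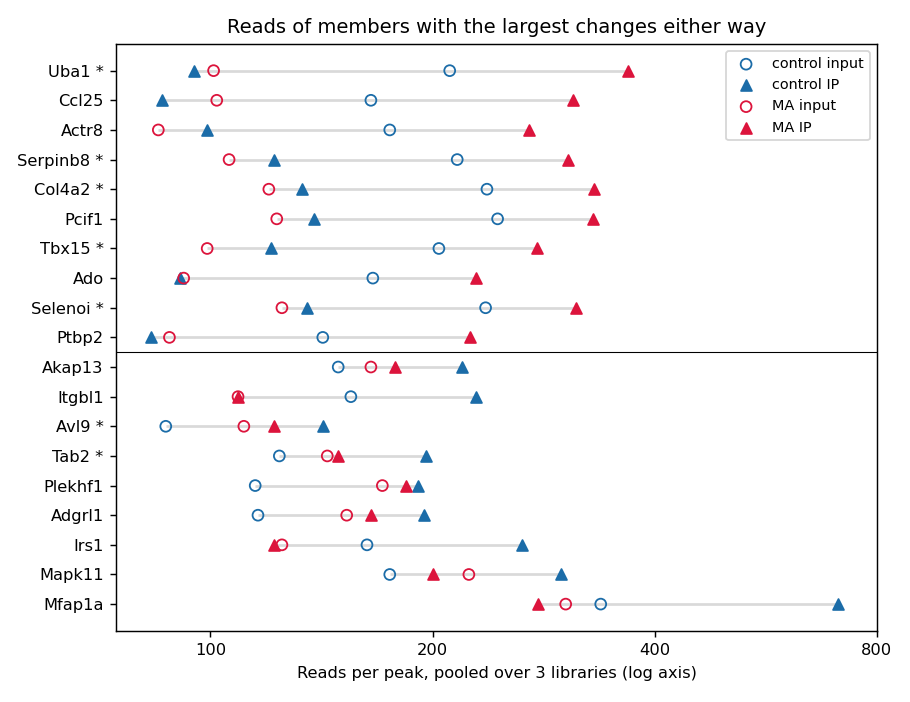
Pooled reads per peak on a log axis for the 10 members with the largest increase (above the line) and 9 of the 10 with the largest decrease (below it). Open circles are input and triangles IP, blue is control and red is MA, and an asterisk marks an unmatched row. Above the line the red triangle is the highest point of each member and below it the blue triangle is.

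The control ratio alone was highest in Mfap1a (1.13 above the median peak on the log2 scale), Dpf2 (0.91), Mapk11 (0.84) and Adgrl1 (0.81), all in matched rows. Dpf2, a subunit of the BAF chromatin remodelling complex, was the best covered of them, with 792 input and 1428 IP reads in control cells, and 619 and 1016 after MA, and its change was -1.05 (-1.24 to -0.86). It stood apart from the others in staying near the median peak after MA (-0.16). The control ratio was lowest in Uba1 (-1.09, unmatched), Ccl25 (-0.88), Ado (-0.80), Col4a2 (-0.77, unmatched) and Pcif1 (-0.77). These are also members with large changes, and the control reads enter both values.

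Input reads per 100 exonic bases, a read count per length over both conditions, were highest in Map1lc3b, the LC3B protein of autophagosomes, with 10200. Next came Rpl39l (5248, unmatched), the PDZ scaffold Mpdz (5132), the methionine sulfoxide reductase Msrb3 (5078) and the proteasome activator Psme3 (4712). All 5 peaks cover 50 exonic bases or fewer, and all but Rpl39l lie across a splice junction. Mpdz was past the fold (-0.79), and the changes of the other 4 ran from -0.54 in Map1lc3b to -0.32 in Rpl39l. Over the 496 placed members input reads did not rise with exonic length (Spearman's rho -0.01). The count per length thus favours short peaks and is not a level of the transcript. Members within 1 exon had a median of 357 input reads against 373 in those over several exons.

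Of 833 genes on 12 lists of pathways, 183 had a peak in the table and 49 were members. Of these 49, 4 were higher (8.16%), 8 lower (16.3%) and 37 within 1.5-fold, with a median change of -0.22, close to the shares over all members. In matched rows the count was 0 higher and 5 lower of 26, where all members of matched rows had 9.12% higher and 19.3% lower. With 26 members nothing is read from this count. The lists of lysosome and endosome, actin cytoskeleton and adhesion, and interferon response held no member. Of their genes, 17, 6 and 2 had a peak in the table.

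The machinery of m6A itself gave 2 members, both in unmatched rows and both within 1.5-fold. Rbm15, which guides the methyltransferase to its sites, had 264 input and 220 IP reads in control cells, and 194 and 290 after MA (-0.07). Ythdf3, a cytoplasmic reader, had 196, 182, 126 and 190 in the same order (-0.21).

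Chromatin and transcription gave 10 members, of which 4 were lower and 1 higher, with a median of -0.49. Over all members 18.6% were lower and 9.31% higher, and with 10 members nothing particular to the list is read from its count. Myc, the growth-promoting transcription factor, had 442 input and 495 IP reads in control cells, and 412 and 491 after MA (-0.82, -1.09 to -0.56). The coactivator Ncoa6 changed by -0.83 and the histone demethylase Kdm5a by -0.66. In each of these 3 the raw IP-to-input ratio was slightly higher after MA, and the decrease is one relative to the median peak. The other 2 were in unmatched rows, the DNA demethylase Tet1 (-0.65) and the Wnt effector Tcf7l2 (0.64). Arid1b (unmatched), Ncoa2, Kdm2a, Phf12 and Foxk2 ranged from -0.53 in Foxk2 to -0.14 in Arid1b.

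Kinase and growth factor signalling gave 9 members with a median change of -0.11, and Mapk11 was the one past the fold. The receptor Met had 324 input and 248 IP reads in control cells, and 239 and 387 after MA (0.17). The activin receptor Acvr2a (0.52), the collagen receptor Ddr2 (0.28), the hedgehog effector Gli3 (0.22) and Mark2 (-0.18) were within the fold, as were Smad4 (-0.27) and Sik1 (-0.50) in unmatched rows.

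Ubiquitin conjugation and removal was the list with the most members, 12, with a median of -0.21, and 11 lay within 1.5-fold. Huwe1, a large HECT ligase, had 868 input and 687 IP reads in control cells, and 670 and 942 after MA (-0.08, -0.29 to 0.12), one of the narrower intervals. The cullin Cul4b changed by 0.51, Klhl15 by -0.30 and the axonal ligase Mycbp2 by -0.38. Those in unmatched rows were Uba1 (2.11), Usp31 (0.57), Ubr3 (0.16), Usp15 (-0.18), Trim32 (-0.23), Trim35 (-0.28) and Trim25 (-0.52).

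Autophagy gave 4 members. Irs1 was past the fold. Map1lc3b, with 1342 input and 1253 IP reads in control cells, and 1208 and 1455 after MA, changed by -0.54 (-0.70 to -0.39), just short of it. Depdc5, a subunit of the GATOR1 complex that restrains mTORC1, changed by 0.46, and Atg16l1, which directs LC3 lipidation, by -0.55 in an unmatched row. On raw reads the log2 ratio rose in Map1lc3b (0.37), Depdc5 (1.37) and the row of Atg16l1 (0.36), and fell in Irs1 (-0.73).

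RNA processing and translation gave 7 members with a median of -0.22. Larp1, which binds mRNAs of the translation machinery, had 816 input and 672 IP reads in control cells, and 705 and 1015 after MA (-0.11), though 96.2% of the 25-base stretches of its peak also occur in Gm16425. Pum2 changed by 0.24 and the microRNA processor Drosha by -0.22. Scaf11 (-0.70) was lower, in an unmatched row, and Scaf4 (-0.17) and Zc3hav1 (-0.33), also unmatched, were within the fold. The remaining members on lists were the basement membrane genes Col4a2 and Nid1 (0.25, its whole peak also in Gm2399), the kinases Cdk13 (0.72) and Wee1 (-0.52), and the axon guidance ligand Slit2 (-0.02); Nid1 alone is in a matched row.

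The other 456 members are on none of these lists. For 80 members, 5 groups were put together after the names were seen. RNA helicases, splicing and decay held 21 members, 2 higher and 6 lower (median -0.31), where all members had 9.31% higher and 18.6% lower. Besides Mfap1a, the helicase Dhx40 (-0.99), the core spliceosome protein Prpf8 (-0.80) and Htatsf1 (-0.61) were lower in matched rows. DNA replication and repair held 18, with 1 higher and 2 lower. Mcm8, a helicase of recombination, had 214 input and 135 IP reads in control cells, and 107 and 251 after MA (0.98). DNA ligase 3 (Lig3) had 115 input and 156 IP reads in control cells, and 122 and 132 after MA (-1.24), and the origin protein Orc4 changed by -0.98.

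Mitochondrial proteins held 17 members with a median of 0.29, with 1 higher and 1 lower. The ribosomal protein Mrpl16 was higher (0.90), and 15 lay within the fold. Of 14 regulators of small GTPases and actin binders, 2 were higher, among them the exchange factor Dock1 (0.89), and 3 lower. Of 10 tRNA synthetases and modifiers 1 was lower, Trmt112 (-0.88, unmatched). Over all members 9.31% were higher and 18.6% lower. With so few members per group, nothing is read from the counts or medians of the 5 groups, which were not tested.

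On the transcript, the midpoint of 318 of 483 members on coding transcripts lay in the coding sequence (65.8%, 95% Wilson interval 61.5 to 69.9). The 3′UTR held 119 (24.6%, 21 to 28.7) and the 5′UTR 46 (9.52%, 7.22 to 12.5). The other 2044 placed coding peaks of the table lay in the coding sequence in 55.7%, in the 3′UTR in 35.8% and in the 5′UTR in 8.51%. The same transcripts devote 57.3% of their length to coding sequence, 35.6% to the 3′UTR and 7.14% to the 5′UTR. With this choice of transcript, members lay in coding sequence more often, and in the 3′UTR less often, than the other peaks. The intervals of both shares did not overlap, though they treat each peak as a separate draw. Among members of matched rows 70.7% (65.1 to 75.7) of 283 lay in coding sequence and 20.5% (16.2 to 25.6) in the 3′UTR, and among those of the other rows 59.0% (52.1 to 65.6) of 200 and 30.5% (24.5 to 37.2). The intervals of matched and unmatched members overlap slightly, and in the unmatched rows the coding interval also overlapped that of the other peaks (53.5 to 57.8). The share also depends on the transcript chosen, since on the longest transcript holding each peak the coding share of the members was 56.7% and the 3′UTR share 24.0%, with more members on noncoding transcripts.

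Within 200 bases of the stop codon lay 76 members (15.7%, 12.8 to 19.3), against 11.6% of other peaks and 13% of transcript length. The 5 nearest were 1700037H04Rik at 0 bases, Hspa14 at 11 and Psmc5 at 12 upstream, and Dusp12 at 12 and Cactin at 13 downstream. Of these only 1700037H04Rik was past the fold, with 173 input and 116 IP reads in control cells, and 86 and 226 after MA (1.06). Psmc5, an ATPase of the proteasome, changed by 0.09 and the chaperone Hspa14 by 0.07. Dusp12 changed by -0.05 and Cactin, unmatched, by 0.17. Of 491 members on transcripts with several exons, 160 lay in the last exon (32.6%) and 62 in the first (12.6%).

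The change is given by position over both kinds of row, and in unmatched rows the reads may belong to another position. Neither a relation nor the lack of one is read from these counts. Over all members 9.31% were higher and 18.6% lower, with a median of -0.17. In the coding sequence 26 of 318 members were higher and 60 lower with a median of -0.18. In the 3′UTR 13 of 119 were higher and 18 lower with a median of -0.04, and in the 5′UTR 7 of 46 were higher and 9 lower with a median of -0.18. Within 1 exon 25 of 297 were higher and 56 lower (median -0.18), and over several exons 22 of 199 were higher and 33 lower (median -0.12). The longest peak by exonic bases, 865 bases in the 5′UTR of Il18bp, changed by -0.44. Acaca, acetyl-CoA carboxylase 1, was one of 35 with the shortest length of 25 bases, and had 507 input and 326 IP reads in control cells, and 297 and 592 after MA (0.72). All of its peak also occurs in Gm5182.

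DRACH stood in 363 of 496 members (73.2%, 69.1 to 76.9), on the sense strand. Of all equally long windows on the rest of the same transcripts, 74.9% held it, and of the other 2111 peaks 74.1% did. The narrower RRACH, with A or G at the first position, was in 64.7% of members and 65.4% of windows. GGAC was in 32.7% (28.7 to 36.9) of members, 30.8% of other peaks and 29.8% of windows, and GGACT in 8.47%, 9.14% and 9.28%. GGACT is a form of DRACH, and so is GGAC where the next base is A, C or T. The window shares lay within the members' intervals for all 4 motifs. In matched rows DRACH stood in 208 of 289 members. Among the higher members 37 of 47 held DRACH (78.7%) and 22 held GGAC (46.8%, 33.3 to 60.8). Among the lower ones 66 of 89 placed held DRACH (74.2%) and 31 GGAC (34.8%, 25.7 to 45.2), and among the rest GGAC stood in 30.3% (25.8 to 35.2). The intervals of the higher and lower members overlap. Only 27 of the 47 higher and 57 of the 94 lower members are in matched rows. In the other rows the reads may belong to another peak than the sequence. Nothing is therefore read from the motif shares by direction. The median GC content of the members was 52.6%, against 50.5% over their transcripts. Over both kinds of row, Spearman's rho of the change was -0.02 with GC and 0.07 with exonic length.

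**Figure D5:**
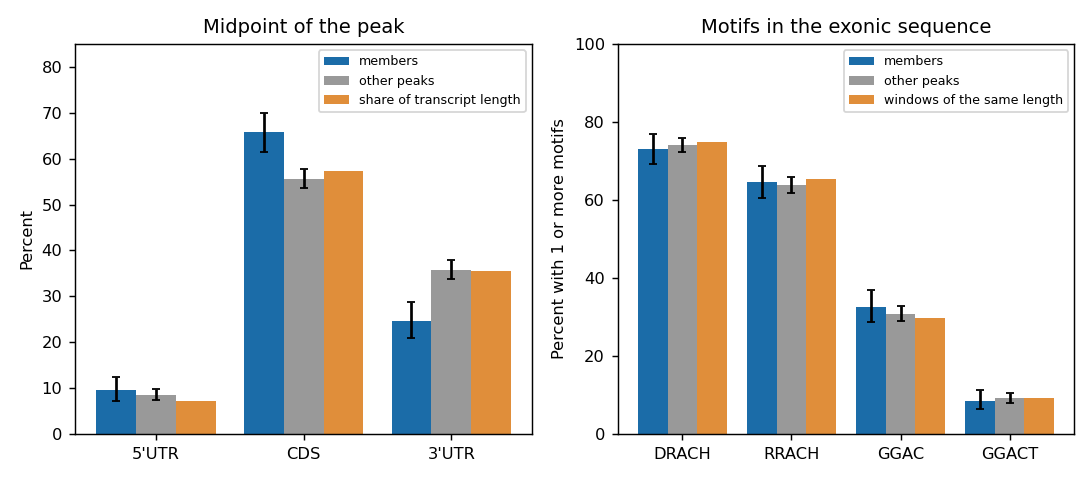
Left, percent of peaks whose midpoint lies in the 5′UTR, coding sequence (CDS) or 3′UTR, for the 483 members and 2044 other peaks on coding transcripts, beside the share of transcript length. Right, percent with at least 1 motif in the exonic sequence, for 496 members, 2111 other peaks and all equally long windows on the rest of the members' transcripts. Error bars are 95% Wilson intervals; members lie above other peaks in the CDS and below them in the 3′UTR, and the motif shares lie close together.

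Some members share sequence or place with other genes. Of 496 members 452 had no 25-base stretch in transcripts of another gene symbol, and 25 shared more than 50% of them. Acat2 with Acat3, Stat5a with Stat5b and Dynlt1b with its Dynlt1 copies are examples. A few are the same gene under an older name, as Macroh2a1 and H2afy. Exons of another gene on the same strand lay under 10 members, exons of one on the opposite strand under 30, and 11 members name several genes.

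At the read minimum, 5 members had exactly 80 reads in their smallest count. F3 had 80 input and 93 IP reads in control cells, and 83 and 110 after MA (-0.72), Klhl15 109, 117, 80 and 131 (-0.30), and Mecom 117, 95, 80 and 144 (0.24). Just outside with 79 were Csgalnact1, with 140 input and 296 IP reads in control cells, and 103 and 79 after MA (-2.37), Dennd2a (-0.17) and Mcat (-0.43). Csgalnact1 would have been the largest decrease of all had it held 1 read more.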

How the data were processed

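Reads of 12 libraries of HT22 cells (MA input, MA IP, control input and control IP, 3 each) were the source. After trimming by fastp, the authors mapped them on mm10 by HISAT2, used StringTie and DESeq2 for expression, and called peaks with exomePeak2. Tool versions are not given in the sources used here. Library preparation was stranded, with molecular identifiers. Per peak, the authors deposited 4 counts of reads, each the sum over the libraries of a group. Per gene, they deposited a base mean, a normalized signal averaged by the authors over all libraries. The authors' fold changes, standard errors, test statistics and p-values stand in the same tables and were not used. Columns of single libraries left out numbered 0, and the depth of the libraries is unknown.

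Members were peaks with 1 block, a gene named on 1 row and 80 or more reads in each count. Members and lists were chosen with earlier results of these data known. Changes were log2 ratios of ratios centred on the median of all peaks, called past 1.5-fold, with intervals from the sum of reciprocal counts. Peaks, read as zero-based starts, were placed on transcripts of the named gene in GENCODE M21, then RefSeq, preferring the longest coding sequence. Levels per length used exonic bases. Stretches of rows were found by dynamic programming on normal scores of input reads and base mean per transcript base, with an assumed correlation of 0.5 and a switch prior of 0.001, after the data were seen. The code for the change and the stretch search was run on simulated data, with Poisson counts and independent rows. Such data hold no spread between libraries, so they cannot show that the changes or stretch borders hold in the real rows.

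Named members were the 10 largest increases and decreases, the 5 highest and lowest control ratios, the 5 with most input reads per length, all members on the lists, those at the read minimum, and those nearest a stop codon, longest or shortest. A few members that this rule covers are not reported here. Members shown beside them, such as those of the 5 later groups, were chosen after their values were seen. Software was pysam 0.24.0, pandas 2.3.3, statsmodels 0.14.6, numpy 2.4.6, matplotlib 3.10.9 and scipy 1.17.1 under Python 3.11.15.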

Additional observations from a re-analysis of the deposited data

How the results depend on the processing

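Counts are of members past the fold. Without scaling, 321 members were higher and 7 lower, and the median changes turned to 0.74 for the ratio, -0.38 for input and 0.39 for IP. Some members lower past the fold then had positive raw changes, among them Kdm5a (0.25), Mpdz (0.12), Myc (0.090), Ncoa6 (0.077), Scaf11 (0.21, unmatched) and Tet1 (0.26, unmatched). So did every member whose centred decrease was within the fold, such as Map1lc3b (0.37) and Foxk2 (0.38). Centring on peaks that are not members gave a median of -0.23. A minimum of 60 reads gave 74 higher and a minimum of 120 gave 22, since the set itself changes. At 1.2-fold 114 were higher and 212 lower, and at 2-fold 13 and 23. With alternatives added after seeing the data, matched rows alone gave 27 higher and 57 lower, and members inside 1 exon 25 and 56, as fewer members enter. RRACH stood in 64.7%, and the longest transcript put 56.7% in the CDS. Summed reads as the scale, 0.5 added to each count, and centring on rows of 20 or more reads left the direction of the median change of the ratio and kept both counts within 1.5 times.

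No paired analysis was possible because the read counts are pooled over the libraries of a group, and leaving out single libraries was not possible for the same reason. With 80 or more reads per count, the standard error of a change ran from 0.08 to 0.30 on the log2 scale from counting alone, and the spread between cultures is unknown.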
